A study of Homo sapiens with 9 samples.

Results

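The mitochondrial protein import machinery was followed in RNA of vesicles released by H9 cells, a human embryonic stem cell (hESC) line in wide use. Its genes were taken from the array annotation as those whose symbol starts with TOMM or TIMM, together with SAMM50, MTX1, MTX2, GRPEL1, GRPEL2, HSPA9, PAM16, DNAJC19, PMPCA, PMPCB, CHCHD4 and GFER. The rule found 37 genes. Of these, 35 had a probe set of their own and were tested among 19775 genes, and 2, TOMM6 and TOMM7, are measured only by probe sets that also match another gene. The 3 groups of vesicles of the same untreated H9 line were profiled with 3 arrays each, from 3 biological samples. hESEVs are non-fractionated vesicles, pelleted at 120000g for 2 hours per the labels, while the methods give a faster and longer spin. MVs (microvesicles) are the pellet of 16500g for 1 hour, and EXOs (exosomes) are the pellet of 120000g for 2 hours from the medium left after the MVs were removed. hESEVs therefore hold both kinds of vesicle. The labels give a first clearing spin of 200g for MVs and of 300g for EXOs and hESEVs, while the methods give 300g for both fractions. Any effect of that spin cannot be told apart from a difference between MVs and the other groups. All were collected from serum-free, feeder-free medium and none was sorted by a surface marker. Each array holds 54675 probe sets, each made of several short probes placed near the 3′ end of a transcript. Their signals are MAS5 intensities in arbitrary units, scaled to the same trimmed mean of 500 on every array.

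Most mitochondrial proteins are encoded in the nucleus, made in the cytosol and carried into the organelle. Precursors are bound by receptors of the TOM complex in the outer membrane and pass through its TOMM40 channel. From there the SAM complex inserts barrel-shaped outer membrane proteins, small TIM chaperones escort hydrophobic proteins through the intermembrane space, and the MIA40 disulfide relay folds small cysteine-rich proteins there. The TIM22 complex inserts metabolite carriers into the inner membrane. The TIM23 complex takes proteins with a presequence into the matrix, where the mortalin motor pulls them in and a peptidase cuts the presequence off. The arrays measured the mRNAs of these proteins, not the proteins, and they do not show whether a vesicle holds mitochondria.

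Promoter sequences were available from RefSeq (GRCh38.p14) for 34 of the 37 genes, as windows of 250 bases before and 50 bases after the start site. NRF-1 (nuclear respiratory factor 1) is known for binding promoters of nuclear genes that encode mitochondrial proteins. Its motif, searched on both strands as GCGC and TGCGC with any 1 base between them, was found in 8 windows (23.5%), against 6.98% of 27305 gene windows. These belong to TOMM20, TOMM40, TOMM7, TOMM34, CHCHD4, TIMM29, GRPEL2 and PAM16. The ETS motif CCGGAAG, bound by the family that includes GABP (NRF-2), was found on either strand in 15 windows (44.1%), against 12.2% of all. The 2 motifs can share at most 1 base, at their ends, and 4 genes held both. A match is a description of the letters and was not tested for binding. The stretches below show the NRF-1 match in a receptor (TOMM20, chr1:235128909-235128958, minus strand), in the channel (TOMM40, chr19:44891012-44891061, plus strand) and in the oxidoreductase of the disulfide relay (CHCHD4, chr3:14124993-14125042 and chr3:14124928-14124977, minus strand). They are given 5′ to 3′ on the strand of the gene, with the match in capitals.
TOMM20: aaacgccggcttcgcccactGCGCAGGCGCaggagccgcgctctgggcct
TOMM40: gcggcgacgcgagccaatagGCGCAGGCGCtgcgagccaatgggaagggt
CHCHD4, farther from the start site: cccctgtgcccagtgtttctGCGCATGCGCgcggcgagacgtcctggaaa
CHCHD4, nearer to the start site: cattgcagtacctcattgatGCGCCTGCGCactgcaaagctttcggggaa

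TIMM23, the channel subunit of TIM23, and TIMM23B are near copies on chromosome 10. Only their promoters were compared here, not the transcripts that the probes match. Over 244 bases of promoter (chr10:45972239-45972482 and chr10:49941809-49942052, GRCh38.p14, plus strand) 240 bases (98.4%) were the same. The bases that differ are in capitals, and are T102C, T106C, A201G and T218C, with the base of TIMM23 first and positions counted from 1 at the first base shown.
TIMM23: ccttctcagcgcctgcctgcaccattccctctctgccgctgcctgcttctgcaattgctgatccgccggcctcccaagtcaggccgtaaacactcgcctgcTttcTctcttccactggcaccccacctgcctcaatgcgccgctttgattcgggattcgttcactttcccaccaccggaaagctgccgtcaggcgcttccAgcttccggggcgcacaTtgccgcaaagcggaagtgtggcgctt
TIMM23B: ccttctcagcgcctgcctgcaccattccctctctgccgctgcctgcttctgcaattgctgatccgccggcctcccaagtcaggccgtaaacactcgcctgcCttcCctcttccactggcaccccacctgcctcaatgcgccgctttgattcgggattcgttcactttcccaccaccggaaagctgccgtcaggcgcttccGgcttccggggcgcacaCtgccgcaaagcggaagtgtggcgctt

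Before any comparison, the arrays themselves differed between the groups. The median signal was 415 to 421 on hESEVs arrays, 358 to 365 on MVs arrays and 422 to 430 on EXOs arrays. The ratio of the 3′ to the 5′ control probe set of GAPDH was 1.89 to 2.22 in hESEVs, 2.88 to 2.90 in MVs and 1.39 to 1.71 in EXOs, and that of ACTB was 8.48 to 10.2 in hESEVs, 22.5 to 25.2 in MVs and 5.64 to 6.80 in EXOs. The 5′ set of ACTB gave 1014 to 1419 in hESEVs, 1623 to 1779 in MVs and 642 to 806 in EXOs. In EXOs, and on hESEVs replicates 2 and 3 (1014 and 1030), it was under the background level defined below, so the ACTB ratio there was not well measured. Of 13 stem cell markers, 10 lay above the background level in hESEVs, 12 in MVs and 6 in EXOs, and their summed signal was 23824 to 25919 in hESEVs, 77384 to 80719 in MVs and 15858 to 18783 in EXOs. Of 14 markers of differentiating cells only GATA3 lay above it in any group, and their summed signal was 6048 to 6976 in hESEVs, 4828 to 5360 in MVs and 8433 to 9648 in EXOs. As background level served the 90th percentile of the group means of 75 tissue-restricted genes, which was 1059 in hESEVs, 896 in MVs and 1243 in EXOs. The part of the RNA quality and marker differences in the results was not tested.

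Import genes were higher in MVs than in EXOs or were not called, and none was lower. In limma (Benjamini-Hochberg adjusted p under 0.05 and at least 2-fold, 6 arrays) 17 of the 35 were higher in MVs, where 11.6% of all genes tested were, and 0 were lower, where 2.77% of all genes were. Among genes above the median signal, 15 of 27 import genes were higher, where 19.2% of 9887 genes were. That filter used the mean log2 signal over the same 6 arrays, so a gene could pass it through its MVs signal alone. A higher signal in MVs was not particular to import genes, since 8 of 11 housekeeping genes were also higher (median log2 2.39). At an adjusted p under 0.05 with no fold limit, TOMM40, MTX2 and TIMM9 also passed, all with a higher MVs mean. The median log2 fold change, MVs minus EXOs, was 1.57 over the 35 genes, with a range from -1.61 to 5.41, and -0.23 over all genes. With each array centred on its median, which moved the median of all genes to 0.01, 25 import genes were called higher and 0 lower. The same centring changed the calls over all genes to 2770 higher and 193 lower, in place of 2293 higher and 548 lower. All 3 MVs arrays lay above all 3 EXOs arrays for 27 import genes, against 18.8% of all genes, the arrays overlapped for 6, and all EXOs arrays lay above all MVs arrays for 2, TIMM23 and TIMM23B, against 22.6% of all genes. Each sample entered with the same amount of total RNA, and the paper reports much longer RNAs in MVs than in EXOs. The part of RNA length in these differences was not tested. Fewer vesicles that carry an mRNA, fewer copies per vesicle and a smaller share of mRNA in the total RNA cannot be told apart in such bulk RNA.

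Group means above the background level were found for 26 import genes in MVs and for 4 in EXOs (TOMM40, TOMM34, TIMM8B and CHCHD4). Of the 17 genes called, 16 were above it in MVs (GFER was not), and TIMM8B was also above it in EXOs. The EXOs signal of the other 16 was thus in the range of genes not expected in stem cells, and the size of their folds is uncertain for that reason. The share of all genes above the level in each group was not counted. The level was lower in MVs (896) than in EXOs (1243). Against the MVs level, the EXOs means of TIMM10 (1201), TIMM23B (1190), TOMM20 (1108), TIMMDC1 (1015), PAM16 (972) and DNAJC19 (904) would also have passed.

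**Figure D1:**
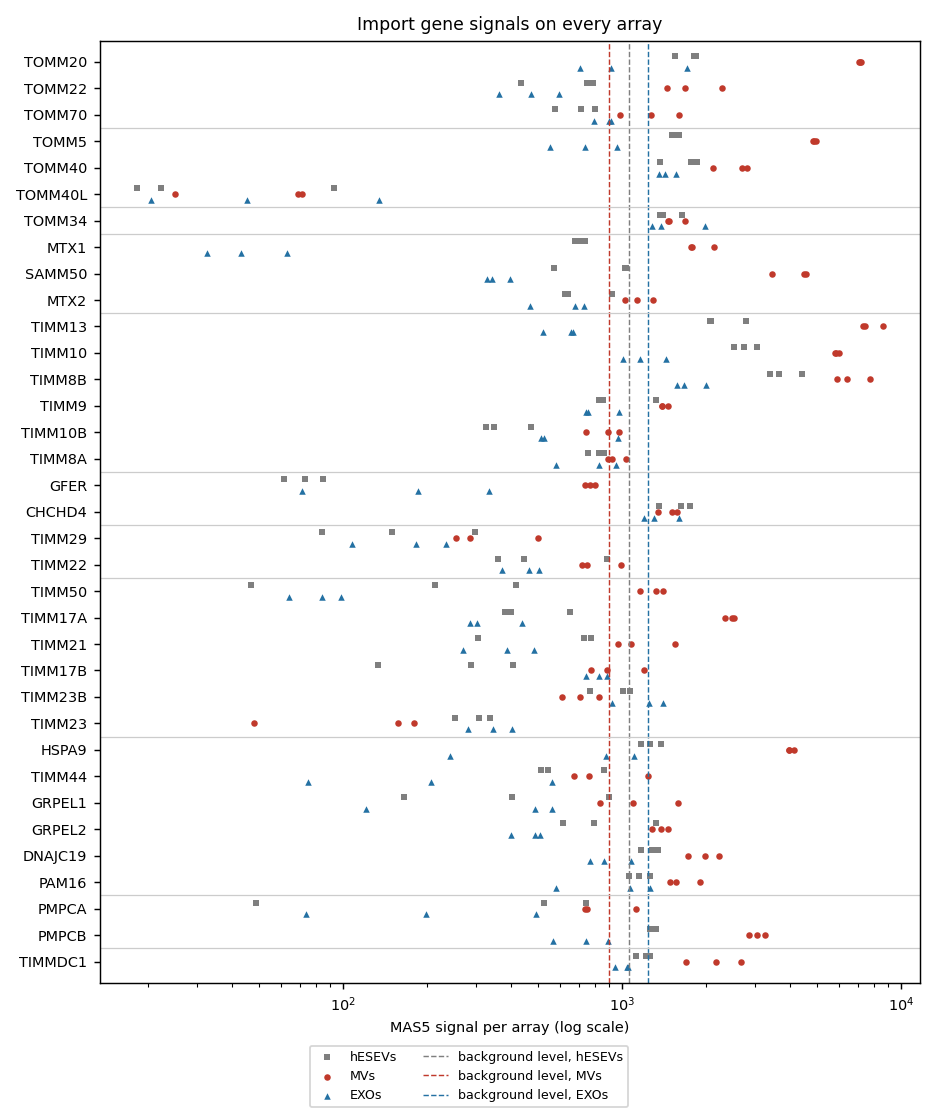
MAS5 signal of each import gene on every array (log axis), with hESEVs as grey squares, MVs as red circles and EXOs as blue triangles, ordered by role and with the background level of each group as a dashed line. The 3 MVs points of TOMM20, TOMM5, TIMM13, TIMM10 and TIMM8B lie between 4852 and 8642, to the right of every EXOs point.

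Among the TOM receptors, TOMM20 (gene ID 9804, chromosome 1), which binds presequences, gave 7199, 7077 and 7127 in MVs and 911, 708 and 1705 in EXOs. Its MVs arrays lay within a narrow band while the EXOs arrays spread more widely, and the groups did not overlap. The mean was 7134 ± 60.9 in MVs and 1108 ± 527 in EXOs (SD, n = 3 each), a 6.91-fold difference (log2 2.79, standard error 0.28, limma adjusted p = 1.8e-04). TOMM22, the central receptor that joins the others to the channel, gave 1688, 1451 and 2282 in MVs and 596, 364 and 473 in EXOs, and was 3.79-fold higher in MVs (log2 1.92, standard error 0.25, limma adjusted p = 9.4e-04). TOMM70, the receptor for carriers and for precursors delivered by HSP70 and HSP90, was not called, with 1285 ± 305 in MVs and 868 ± 63.1 in EXOs (log2 0.54, limma adjusted p = 0.10), although its arrays did not overlap.

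Of the TOMM40 channel and its partners, the small subunit TOMM5 was called. It gave 4900, 4852 and 4962 in MVs and 554, 738 and 962 in EXOs, with no overlap, and was 6.69-fold higher in MVs (log2 2.74, standard error 0.19, limma adjusted p = 1.8e-05). TOMM40 gave 2543 ± 375 in MVs and 1451 ± 106 in EXOs, above the background level in both (log2 0.80, standard error 0.14, limma adjusted p = 0.0049), which is under 2-fold. TOMM40L, a paralog of TOMM40, stayed near the bottom of the scale, at 55.1 ± 26.0 in MVs and 66.6 ± 59.7 in EXOs. TOMM34, a cytosolic co-chaperone of HSP70 and HSP90, gave 1685, 1469 and 1478 in MVs and 1379, 1982 and 1278 in EXOs, with overlapping arrays above both background levels (log2 0.02, standard error 0.18, limma adjusted p = 0.95).

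TOMM7 and TOMM6, the other small TOM subunits, were seen only through shared probe sets. The set of TOMM7 also matches C4orf46 and gave 24605, 23760 and 23140 in MVs and 1642, 1989 and 2439 in EXOs (log2 3.58, limma adjusted p = 2.3e-06 in the fit over probe sets). The 2 sets of TOMM6 also match PRICKLE4, and had means of 6845 and 3020 in MVs and 965 and 542 in EXOs (log2 2.88 and 2.51). All 3 were called higher in MVs, and the genes that share a set cannot be told apart.

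In the SAM complex, 2 of 3 genes were called. MTX1 (gene ID 4580, chromosome 1), a metaxin that works with SAM in the outer membrane, gave 2148, 1776 and 1790 in MVs and 43.1, 62.7 and 32.6 in EXOs. Its EXOs signals were close to the floor of 32, so that the 42.6-fold difference (log2 5.41, standard error 0.45, limma adjusted p = 5.9e-05) rests on a denominator that was not well measured. SAMM50, the pore-forming subunit that inserts barrel proteins, gave 4482, 4582 and 3466 in MVs and 398, 343 and 329 in EXOs, which is 11.7-fold higher in MVs (log2 3.54, standard error 0.17, limma adjusted p = 1.7e-06). Without MVs replicate 1 or 2 another, less different probe set became the brightest of SAMM50, with a log2 fold change of 0.92 or 0.98 (limma adjusted p = 0.082 and 0.071). MTX2, the partner of MTX1, reached 1149 ± 136 in MVs and 626 ± 138 in EXOs (log2 0.89, limma adjusted p = 0.027), under 2-fold.

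Of the 6 small TIM chaperones, 3 were called. TIMM13, which pairs with TIMM8 proteins, gave 7305, 8642 and 7467 in MVs and 655, 520 and 669 in EXOs, and was 12.7-fold higher in MVs (log2 3.67, standard error 0.14, limma adjusted p = 4.5e-07), the smallest p of the import genes. TIMM10, the partner of TIMM9, gave 6007, 5849 and 5787 in MVs and 1437, 1158 and 1009 in EXOs (log2 2.31, standard error 0.14, limma adjusted p = 7.2e-06). TIMM8B, a close relative of TIMM8A, gave 7763, 6419 and 5920 in MVs and 1573, 1671 and 2000 in EXOs (log2 1.94, standard error 0.14, limma adjusted p = 2.1e-05). It was the called gene whose EXOs mean also lay above the background level, so its 3.83-fold difference was measured on both sides. With quantile normalization its log2 fold change was 0.85, under 2-fold, which ended the call. The remaining members TIMM9, TIMM10B (a subunit of the human TIM22 complex) and TIMM8A (the gene of deafness-dystonia syndrome) had log2 fold changes of 0.79, 0.43 and 0.30, and the first reached a limma adjusted p of 0.012 at under 2-fold.

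In the disulfide relay 1 of 2 genes was called. GFER, the sulfhydryl oxidase that re-oxidizes MIA40, gave 738, 765 and 803 in MVs and 334, 186 and 71.2 in EXOs, all under the background levels (log2 2.23, standard error 0.58, limma adjusted p = 0.030). That call was lost without any one of the MVs arrays or EXOs replicate 2 (limma adjusted p = 0.062 to 0.092). CHCHD4, which encodes MIA40 itself, gave 1516, 1352 and 1583 in MVs and 1309, 1204 and 1597 in EXOs, above the background level in both and with overlapping arrays (log2 0.12, standard error 0.15, limma adjusted p = 0.60).

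Neither tested gene of the TIM22 carrier translocase was called. The channel TIMM22 averaged 819 ± 151 in MVs and 447 ± 67.1 in EXOs (log2 0.87, limma adjusted p = 0.052). TIMM29, a subunit of the human complex, averaged 346 ± 134 in MVs and 175 ± 63.3 in EXOs (log2 0.99, limma adjusted p = 0.23). The arrays of both genes did not overlap, but all means were under the background levels.

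In the TIM23 presequence translocase, 3 of 6 genes were called. TIMM17A, a core channel subunit, gave 2480, 2517 and 2348 in MVs and 284, 302 and 439 in EXOs (7.29-fold, log2 2.87, standard error 0.21, limma adjusted p = 2.6e-05). The TIMM17A call was lost with its probe sets averaged. TIMM50, the receptor that takes presequences from TOM, gave 1408, 1166 and 1321 in MVs and 64.2, 84.3 and 98.1 in EXOs (16.0-fold, log2 4.00, standard error 0.41, limma adjusted p = 2.0e-04). A second TIMM50 set was the brighter one over all 9 arrays and without any one of the MVs arrays. It gave 366 in MVs and 311 in EXOs on average, and the log2 fold change was then 0.66 to 0.84 (limma adjusted p = 0.57 to 0.66 without an MVs array). TIMM21, which couples TIM23 to TOM, gave 1078, 1553 and 968 in MVs and 387, 485 and 270 in EXOs (3.17-fold, log2 1.67, standard error 0.31, limma adjusted p = 0.0061). The TIMM21 call was lost by the methods' t-test after Benjamini-Hochberg adjustment, with its sets averaged (log2 1.16, limma adjusted p = 0.062) and without _s_at and _x_at sets, which are marked as matching several transcripts (log2 0.66, limma adjusted p = 0.53). TIMM17B, the paralog of TIMM17A, gave 1201, 777 and 884 in MVs and 886, 746 and 825 in EXOs, with overlapping arrays (log2 0.20, limma adjusted p = 0.54).

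TIMM23 and TIMM23B were the 2 import genes with every EXOs array above every MVs array. On its own probe set TIMM23 gave 47.9, 158 and 180 in MVs and 346, 404 and 280 in EXOs (log2 -1.61, standard error 0.64, limma adjusted p = 0.11). TIMM23B gave 827, 607 and 708 in MVs and 1402, 1250 and 918 in EXOs (log2 -0.73, standard error 0.22, limma adjusted p = 0.053). Neither was called, and of these 4 group means none lay above its background level. The 3 sets that match both genes went the other way. One gave 3493, 3966 and 3842 in MVs and 523, 423 and 578 in EXOs (log2 2.90, limma adjusted p = 1.0e-05), another averaged 908 in MVs and 63.0 in EXOs (log2 3.97, limma adjusted p = 0.0047), and the third averaged 1630 in MVs and 1024 in EXOs (log2 0.69, limma adjusted p = 0.074). For this pair of near copies 2 of the 3 shared sets were thus higher in MVs, and which of the genes it came from cannot be told apart.

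All 6 genes of the import motor had a higher mean in MVs and 3 were called. HSPA9, which encodes mortalin, the matrix HSP70 that pulls precursors in, gave 3968, 4132 and 3974 in MVs and 877, 1104 and 242 in EXOs (6.53-fold, log2 2.71, standard error 0.49, limma adjusted p = 0.0057). The HSPA9 call was lost by the methods' t-test after Benjamini-Hochberg adjustment and with its sets averaged (log2 0.96, under 2-fold). GRPEL2, a nucleotide exchange factor of mortalin, gave 1469, 1287 and 1385 in MVs and 487, 510 and 400 in EXOs (2.98-fold, log2 1.57, standard error 0.19, limma adjusted p = 6.4e-04). Its second set averaged 658 in MVs and 655 in EXOs (log2 0.08, limma adjusted p = 0.9 in the fit over probe sets). With both sets averaged the GRPEL2 call was lost. DNAJC19, whose yeast relative is the J protein Pam18, gave 2227, 1730 and 1981 in MVs and 767, 863 and 1082 in EXOs (2.20-fold, log2 1.14, standard error 0.17, limma adjusted p = 0.0023). TIMM44, the tether of the motor, had a log2 fold change of 2.07 (standard error 0.69) with EXOs arrays of 74.9, 560 and 206, and missed the threshold (limma adjusted p = 0.071). Without EXOs replicate 2 or 3 its other probe set became the brighter one and passed (log2 3.74 and 2.32, limma adjusted p = 0.016 and 0.0034). GRPEL1, the paralog of GRPEL2, had 1.81 (limma adjusted p = 0.060), and PAM16, a J-like regulator, had 0.83 (limma adjusted p = 0.072, and 0.048 at 1.06 without EXOs replicate 1).

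Of the processing peptidase, which removes presequences, 1 of 2 subunits was called. PMPCB, the catalytic subunit, gave 2860, 3269 and 3058 in MVs and 565, 892 and 744 in EXOs (4.24-fold, log2 2.08, standard error 0.18, limma adjusted p = 7.1e-05). Its second set, under the background levels, averaged 165 in MVs and 326 in EXOs (log2 -1.40, limma adjusted p = 0.32 in the fit over probe sets). With both sets averaged the PMPCB call was lost. PMPCA gave 1128, 748 and 739 in MVs and 490, 199 and 73.5 in EXOs (log2 2.15, standard error 0.66, limma adjusted p = 0.053), and passed without EXOs replicate 1 (log2 2.82, limma adjusted p = 0.015). TIMMDC1, which has the TIMM prefix but is known as an assembly factor of complex I, gave 2673, 2167 and 1696 in MVs and 948, 1046 and 1052 in EXOs (2.11-fold, log2 1.08, standard error 0.18, limma adjusted p = 0.0035). Without MVs replicate 1 its log2 fold change was 0.92, under 2-fold.

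**Figure D2:**
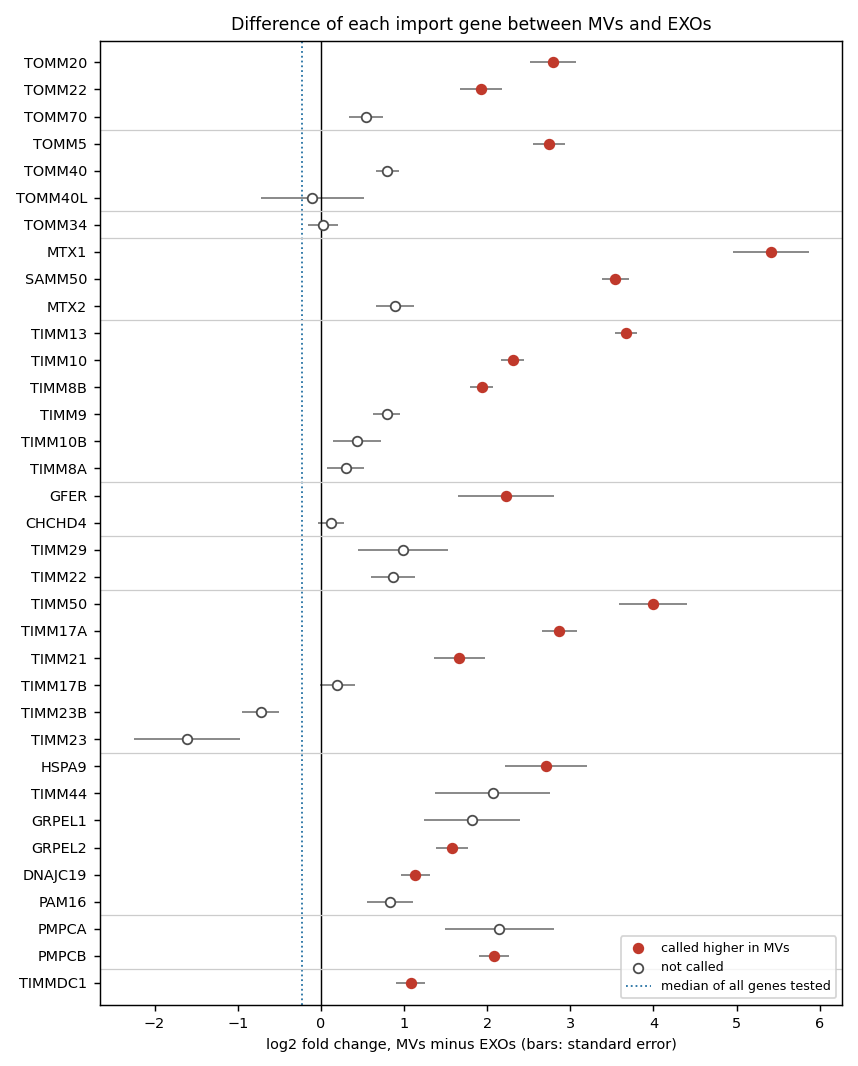
Log2 fold change, MVs minus EXOs, of the 35 import genes on the horizontal axis with standard errors, ordered by role, with filled points for the 17 genes called and a dotted line at the median of all genes tested (-0.23). MTX1 lies farthest right at 5.41, and TIMM23 and TIMM23B lie left of 0 without being called.

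For 9 pairs of paralogs or partners, chosen after the values were seen, the log2 difference within each array was compared between MVs and EXOs by an exact permutation test (two-sided, 3 against 3 arrays, smallest possible p 0.1). The log2 fold change of TIMM8B was larger than that of TIMM8A by 1.64 (exact p = 0.1, adjusted p = 0.18 over the 9 pairs), with TIMM8A under the background level in EXOs. The second sets of these genes, dimmer and under the background levels, had log2 fold changes of 1.59 for TIMM8B and 1.01 for TIMM8A. The log2 fold change of TIMM10 was larger than that of TIMM10B by 1.87 with the same p, though TIMM10B was under the background level in both groups and TIMM10 in EXOs. The pairs MTX1 and MTX2, TIMM17A and TIMM17B, and GFER and CHCHD4 gave the same p. Since MTX1, MTX2, TIMM17A and TIMM17B in EXOs and GFER in both groups were under the background level, the size of those differences was not measured. For GRPEL1 and GRPEL2 (exact p = 0.9), TOMM40 and TOMM40L (exact p = 0.4), TIMM23 and TIMM23B (exact p = 0.3) and PMPCA and PMPCB (exact p = 0.8) the arrays overlapped. With 3 arrays a group no pair could pass a threshold of 0.05.

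How a gene looked depended on the probe set. In a fit over all 54613 probe sets that are not controls, added after the data were seen, 26 of the 65 sets that match 1 import gene were higher in MVs, where 7.23% of all sets were, and 0 were lower, where 1.97% of all sets were. Of the 6 shared sets, 5 were higher and 0 were lower. The sets of 8 of the 22 genes with several pointed in both directions, namely DNAJC19, GFER, HSPA9, PMPCB, SAMM50, TIMM13, TIMM17A and TIMM17B, and none was called against the direction of the set that stands for its gene. The second set of the called gene DNAJC19 averaged 1058 in MVs, above the background level, and 1136 in EXOs (log2 -0.11, limma adjusted p = 0.83), and with both sets averaged the DNAJC19 call was lost (log2 0.52). The second set of TIMM13 averaged 80.9 in MVs and 111 in EXOs. For HSPA9, 3 sets were higher in MVs (log2 2.71, 1.99 and 1.46) while the fourth averaged 69.5 in MVs and 307 in EXOs (log2 -2.32, limma adjusted p = 0.067). Genes with agreement included TOMM5 (log2 2.74 and 3.80) and TIMM10 (2.31 and 2.30), each with both sets called. Second sets of TIMM44 (log2 3.20, limma adjusted p = 0.028) and GRPEL1 (2.11, limma adjusted p = 0.037) were called although the first sets of these genes were not.

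**Figure D3:**
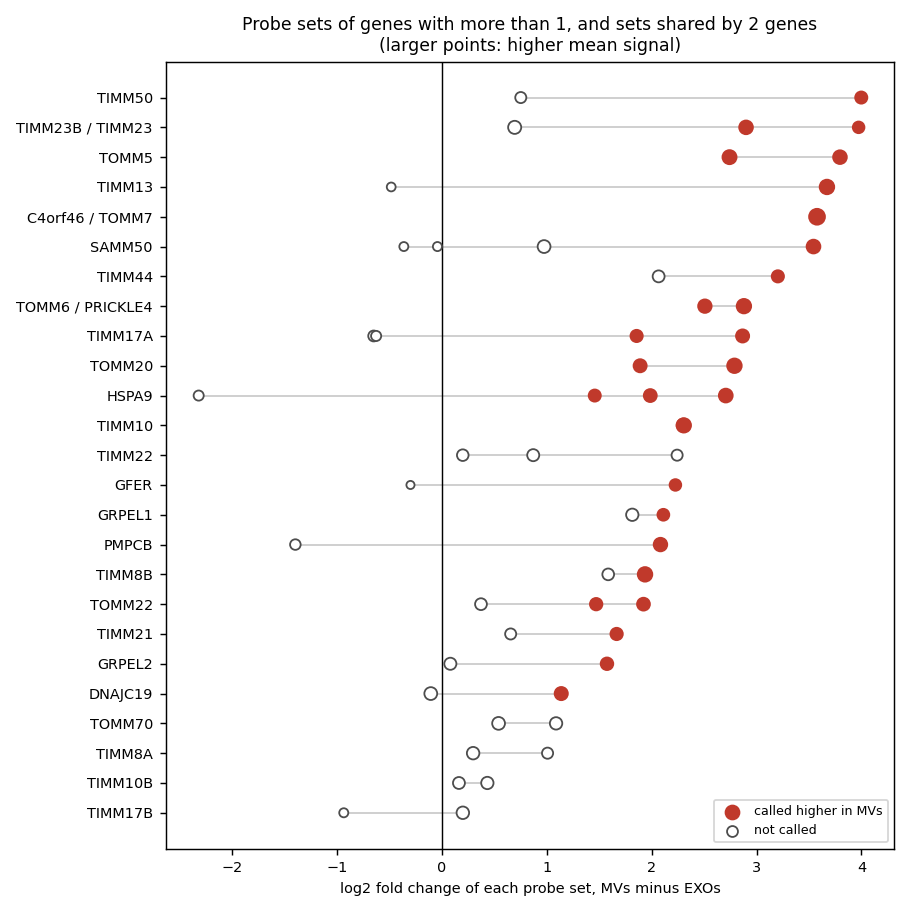
Log2 fold change, MVs minus EXOs, of each probe set (points, larger for a higher mean signal) for import genes with more than 1 set of their own and for sets shared with another gene, with filled points for sets called higher in MVs. No set is called left of 0, and the open HSPA9 point lies farthest left at -2.32.

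Non-fractionated hESEVs lay between the fractions for most import genes. The order of means was MVs above hESEVs above EXOs for 26 of the 35 genes, including 16 of the 17 called in MVs against EXOs, with GFER as the other one. The share of all genes in this order was not counted. For the 17 called genes the place of MVs above EXOs was fixed by the call. In limma on all 9 arrays 0 import genes were higher in hESEVs than in MVs, where 1.56% of all genes were, and 13 were lower, where 7.17% of all genes were, with a median log2 fold change of -0.87 (0.15 over all genes). Against EXOs, 6 were higher in hESEVs, where 3.28% of all genes were, and 1 was lower, where 0.172% of all genes were, with a median of 0.32 (0.00 over all genes). These comparisons share arrays with each other and with MVs against EXOs, so they are not independent of it. For TIMM50 they used the second set (log2 -0.12 against MVs), while the order of means used the first. On the first set TIMM50 was lower in hESEVs than in MVs (log2 -3.01, limma adjusted p = 0.03 in the fit over probe sets). Against EXOs that set was not called (log2 0.99, limma adjusted p = 0.68), and its hESEVs mean of 226 was under the background level. The means of 13 import genes lay above the background level in hESEVs, and the share of all genes above it was not counted.

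MTX1 gave 739, 681 and 712 in hESEVs, all above its EXOs arrays of 32.6 to 62.7 and below its MVs arrays of 1776 to 2148. It was higher in hESEVs than in EXOs (fitted log2 4.00, standard error 0.37, limma adjusted p = 4.3e-05), but both means were under the background level so that the size is uncertain, and lower in hESEVs than in MVs (log2 -1.42, standard error 0.37, limma adjusted p = 0.027). TIMM13 gave 2094, 2073 and 2776 in hESEVs and was likewise lower than in MVs (log2 -1.76, limma adjusted p = 1.4e-05) and higher than in EXOs (log2 1.91, limma adjusted p = 1.1e-05). TIMM10 had 2738, 2514 and 3040 in hESEVs and TOMM5 had 1528, 1597 and 1509, again between the fractions. Against MVs their log2 fold changes were -1.09 and -1.67, and against EXOs they were 1.21 and 1.07, all called. TIMM8B, with 4410, 3404 and 3666 in hESEVs, lay above the background level in all groups. It was higher than in EXOs (log2 1.13, limma adjusted p = 4.4e-04) and under 2-fold lower than in MVs (log2 -0.81, limma adjusted p = 0.0027). SAMM50 was called in both comparisons, at -2.29 against MVs and 1.25 against EXOs. Its means of 880 in hESEVs and 357 in EXOs were under the background levels, so the size of the latter is uncertain.

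Other genes were lower in hESEVs than in MVs with no call against EXOs. TOMM20 gave 1851, 1816 and 1546 in hESEVs, a log2 fold change of -2.04 against MVs (standard error 0.25, limma adjusted p = 2.2e-04) and 0.75 against EXOs (limma adjusted p = 0.16). The log2 fold change against MVs was -2.40 for TIMM17A, -1.67 for HSPA9, -1.48 for TOMM22, -1.25 for PMPCB and -1.20 for TIMM10B. The TIMM10B means, 381 in hESEVs and 871 in MVs, were both under the background levels. GFER was under the background level in all groups, with 72.8, 84.8 and 61.6 in hESEVs, under both fractions in its mean (log2 -3.41 against MVs, limma adjusted p = 0.0029, and -1.18 against EXOs, limma adjusted p = 0.42). TIMM17B, which did not separate MVs from EXOs, gave 407, 134 and 288 in hESEVs and was lower there than in MVs (log2 -1.91, limma adjusted p = 0.0072) and than in EXOs (log2 -1.71, limma adjusted p = 0.026). The TIMM17B means in hESEVs (276) and EXOs (819) were both under the background levels. TIMM23 and TIMM23B in hESEVs, at 298 ± 42.7 and 950 ± 158, were not called in either comparison.

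Several of these calls rested on every array being in the fit. Against MVs, the call of MTX1 (limma adjusted p = 0.072 to 0.12) and of HSPA9 (0.062 to 0.080) was lost without any one of the 6 hESEVs or MVs arrays, and that of TIMM10B without hESEVs replicate 1 or 2 or MVs replicate 1 or 2 (0.074 to 0.16). TOMM22 without MVs replicate 3 had a log2 fold change of -0.81 (limma adjusted p = 0.10). SAMM50 against MVs became -0.21 to -0.48 without hESEVs replicate 3 or any one MVs array, and against EXOs 0.54 to 0.76, since another probe set then stood for it. Against EXOs, TOMM5 fell under 2-fold without EXOs replicate 1 (log2 0.87), and TIMM17B missed the threshold without hESEVs replicate 3, MVs replicate 3 or any one EXOs array (limma adjusted p = 0.052 to 0.093).

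**Figure D4:**
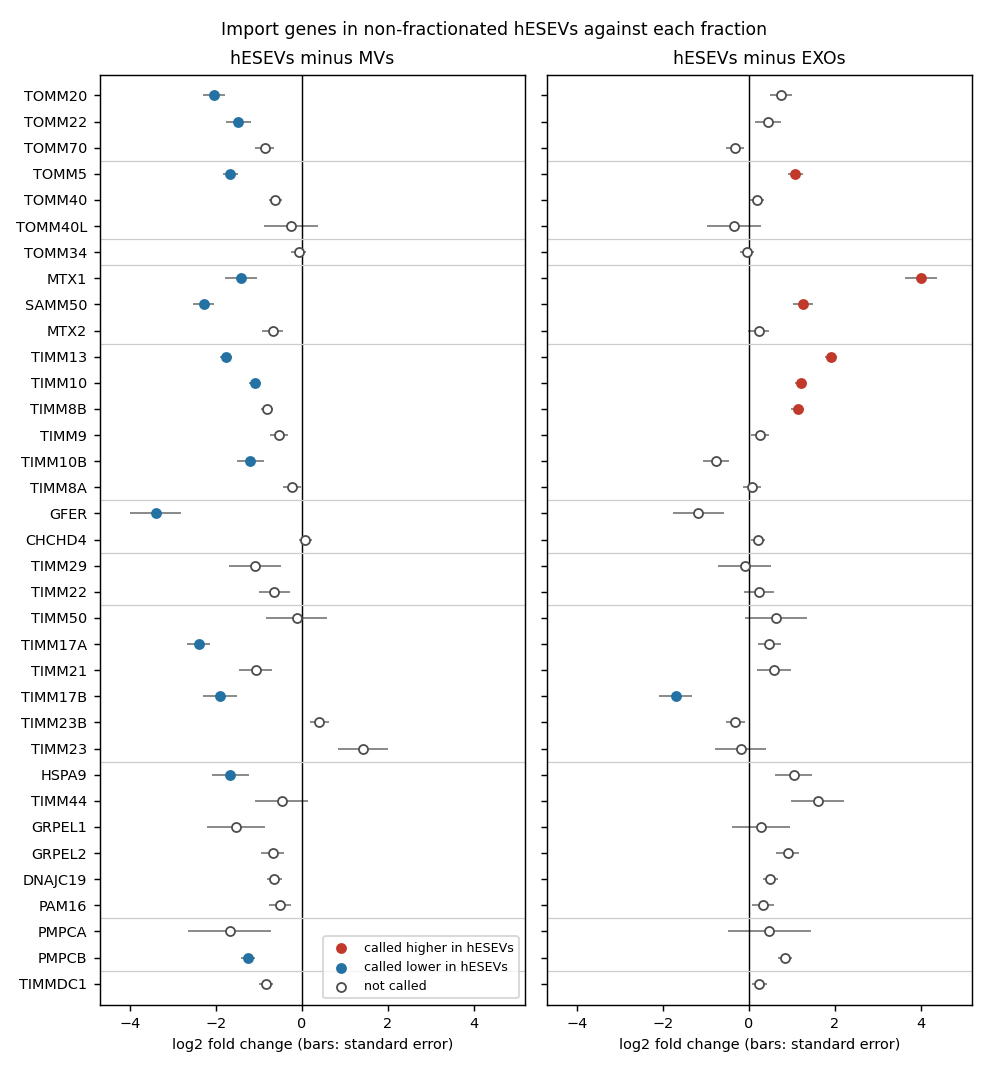
Log2 fold change of each import gene for hESEVs minus MVs (left) and hESEVs minus EXOs (right), with standard errors, ordered by role, with red for genes called higher in hESEVs, blue for lower and open points for genes not called. Blue points number 13 in the left panel, and the right panel has 6 red points and 1 blue point (TIMM17B).

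Genes whose products work beside the import machinery were counted from lists, to be read against the 11.6% of all genes called higher in MVs and the 2.77% called lower. None of their members was called lower, although 3 passed the adjusted p at under 2-fold with every EXOs array above every MVs array. These were SLC25A20, the carnitine carrier, with 957 ± 195 in MVs and 1802 ± 105 in EXOs (log2 -0.93, limma adjusted p = 0.0076), DNAJC15, a relative of DNAJC19 (log2 -0.71, limma adjusted p = 0.012), and SLC25A28, an iron carrier (log2 -0.86, limma adjusted p = 0.042). The means of SLC25A28, 488 in MVs and 889 in EXOs, were under the background levels. Of the 75 tissue-restricted genes that set those levels, 59 had a negative log2 fold change (median -0.52). Of 8 cytosolic chaperone genes that keep precursors unfolded, 8 were higher in MVs (median log2 2.43), among them NACA with 44526 ± 3783 in MVs and 4612 ± 465 in EXOs, BTF3 (log2 3.29), HSP90AA1 (3.42) and HSP90AB1 (2.90). Of 14 outer membrane and MICOS genes, 9 were higher (median log2 1.52), of which VDAC3 (1.94), MTCH1 (2.58), MICOS10 (2.30) and VDAC2 (1.91), pores and membrane proteins, had the smallest p. Of 12 matrix folding and processing genes, 6 were higher (median log2 0.96), including HSPD1 (2.78) and HSPE1 (3.36), which form the matrix chaperonin, and the proteases AFG3L2 (2.20) and LONP1 (3.29). Of 7 further inner membrane genes, 4 were higher (median log2 1.05), with ROMO1 at 4.54 and the insertase OXA1L at 3.33. The inner membrane protease YME1L1 was higher at 1.61. The EXOs means of MTCH1, MICOS10, HSPE1, AFG3L2, LONP1, ROMO1, OXA1L and YME1L1 were under the background level. The size of their folds is uncertain for that reason.

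Client proteins of 2 import routes were counted in the same way, again to be read against the 11.6% of all genes called higher in MVs. Among 12 genes of proteins folded by the MIA40 relay, 9 were higher in MVs (median log2 2.37), including NDUFB7 (5.02), COX6B1 (3.72), CHCHD10 (3.48) and TRIAP1 (2.05). The EXOs means of these named genes were all under the background level, so the size of their folds is uncertain. Among 11 carrier genes whose products are inserted by TIM22, 2 were higher, SLC25A5 (2.81) and SLC25A3 (3.17), the ADP/ATP and phosphate carriers, and the median log2 was 0.03, which is near the background of all genes. The difference between the lists was not tested. Beside these, 59 of 77 mitochondrial ribosomal protein genes (median log2 1.96) and 33 of 44 nuclear complex I genes (median log2 2.65) were higher in MVs and 0 were lower, which puts the median of the import genes (1.57) below both and above that of all genes, as a description without a test.

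**Figure D5:**
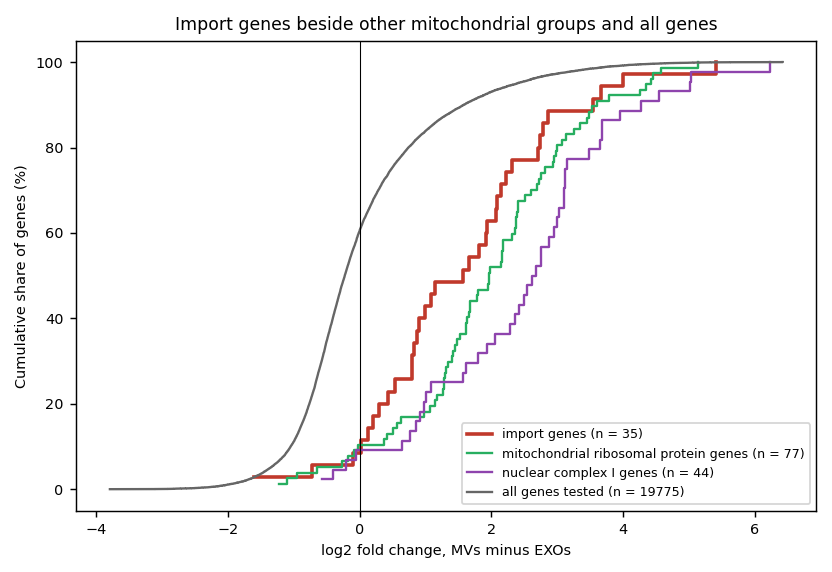
Cumulative share of genes (%) against the log2 fold change, MVs minus EXOs, for import genes (n = 35), mitochondrial ribosomal protein genes (n = 77), nuclear complex I genes (n = 44) and all genes tested (n = 19775). The curves of the 3 mitochondrial groups lie mostly to the right of that of all genes, with medians of 1.57, 1.96 and 2.65 against -0.23.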

How the data were processed

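RNA of hESEVs, MVs and EXOs, from 3 biological samples each, had been hybridized to Affymetrix HG-U133 Plus 2.0 arrays. The authors summarised the scans with MAS5 (version not given in the sources used here), scaled every array to a target of 500, and deposited 1 linear intensity for each probe set. The RMA values of their own comparison were not used here.

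Signals under 32 (3.38% to 5.49% of an array) were raised to 32 and log2 was taken. Control sets (62), 1801 sets paired with several genes and 11721 with none did not enter the tests by gene. Each gene was represented by whichever of its sets was brightest on average (log2) on the arrays fitted, so the TIMM50 set differed between the fits. MVs were compared with EXOs on 6 arrays, and hESEVs with each fraction on all 9, with limma 3.58.1 in R 4.3.3 (lmFit, eBayes with trend, two-sided), and p-values were adjusted over 19775 genes. The methods' t-test, other normalizations, floors, probe set rules, a replicate block and each array left out were tried as alternatives. The scripts were tested on simulated data. Precision is limited by the number of arrays, since no counts exist.

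The members and lists were chosen with earlier results of these data known. All members may be named. Values on every array are given for called members whose MVs mean lies above the background level, for those higher in EXOs and for those whose probe sets differ in direction, and up to 4 genes with the smallest p for each related list. Other array values given were chosen after they were seen. The replicate numbers were not taken as pairs, since arrays with the same number did not deviate together. The paper reports that MVs and EXOs came from 3 cultures of hESCs. Which arrays share a culture is not given, and the groups were fitted as independent. Python 3.11.15 with pandas 2.3.3, numpy 2.4.6, scipy 1.17.1 and matplotlib 3.10.9 was used for sequences, permutation tests and figures.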

Additional observations from a re-analysis of the deposited data

How the results depend on the processing

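The number of import genes higher in MVs than in EXOs was 12 to 25 in place of 17 under the alternatives, except that 8 of 29 were called without probe sets marked as shared between transcripts (_s_at and _x_at), and 13 to 19 with 1 array left out. A floor of 100 was the setting that called a gene lower (TIMM23, log2 -1.26). The median log2 fold change of 1.57 became 1.03 with quantile normalization, 1.81 with centred arrays, 1.14 with genes above the median signal, 0.96 with the sets of a gene averaged, 0.79 without _s_at and _x_at sets, 1.14 with all 9 arrays and 1.05 to 1.64 with 1 array left out. Quantile normalization moved the median of all genes to -0.12, and 2169 of them were then higher and 850 lower in MVs.

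For hESEVs against MVs the 13 calls became 5 with quantile normalization, 4 with averaged sets, 5 without _s_at and _x_at sets and 9 to 14 with 1 array left out. The median of -0.87 became -0.67 with quantile normalization, -1.08 with centring, -0.70 with averaging, -0.67 without _s_at and _x_at sets, -1.08 with the compared arrays alone and -1.08 to -0.70 with 1 array left out. Over all genes 256 were higher and 602 lower in hESEVs with quantile normalization, and 104 higher and 1904 lower with centring, against 308 and 1417. For hESEVs against EXOs the 7 calls became 2 by the methods' t-test after Benjamini-Hochberg adjustment, 3 with averaged sets, 3 without _s_at and _x_at sets and 5 to 7 with 1 array left out.

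Signs changed for genes with little difference between MVs and EXOs, namely CHCHD4 (-0.15), TOMM34 (-0.37) and TOMM40L (0.0056) with quantile normalization, TOMM40L with centring (0.13) or without MVs replicate 2 (0.27) or EXOs replicate 1 (0.50), and, over all arrays left out in turn, TOMM40L ranged from -0.53 to 0.50 and TOMM34 from -0.10 to 0.21. The TOMM34 sign changed without MVs replicate 1 (-0.04), EXOs replicate 1 (-0.05) or EXOs replicate 3 (-0.10), and that of TIMM17B with averaging (-0.37). Without _s_at and _x_at sets, a dim set stood for GFER (-0.30), TIMM13 (-0.48) and TIMM17A (-0.65), and hESEVs minus MVs was 0.87 for TIMM13 and 0.74 for TIMM17A. Quantile normalization took DNAJC19 (0.96), SAMM50 (0.95), TIMM8B (0.85) and TIMMDC1 (0.84) under 2-fold. Other causes were not tested.

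Arrays with the same replicate number did not deviate together (r = -0.014 to 0.005), so the numbers were not taken as pairs. With a replicate block, 19 import genes were called in MVs against EXOs, 12 in hESEVs against MVs and 7 in hESEVs against EXOs.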
